A study of Mus musculus with 56 samples.

Results

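The NR4A and EGR activation factors are 6 genes, the nuclear receptor genes Nr4a1, Nr4a2 and Nr4a3 and the zinc finger genes Egr1, Egr2 and Egr3. They were chosen by name as immediate-early factors of the T cell receptor, not by their values, and make up 6 of the 47937 genes listed in each of 2 count tables, called the Odc set and the Dohh set. All 6 had counts high enough to be tested in both sets. The question asked of them here is how their transcript levels differed between T helper subsets and between WT cells and cells that lack an enzyme of the polyamine and hypusine pathway.

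Naive CD4+ T cells were taken by negative selection from spleen and lymph nodes of C57BL/6 mice, activated with anti-CD3, anti-CD28 and IL-2, and collected on day 4 of polarization. TH1 cultures received anti-IL-4, IL-12 and IL-2. TH2 cultures received anti-IFN-γ, IL-4 and IL-2. TH17 cultures received both antibodies with IL-6, TGF-β and IL-1β, and Treg cultures received both antibodies with TGF-β and IL-2. Libraries labelled Odc-/- or Dohh-/- came from Odc flox/flox or Dohh flox/flox mice with Cre recombinase driven by the CD4 promoter, so that the deletion is not limited to CD4+ cells but also reaches other T cells that passed through a CD4+ stage. Control mice, called WT, carried no Cre, and were littermates, usually 6 to 10 weeks old and of both sexes. The Odc set holds 4 WT and 4 libraries labelled Odc-/- per subset, except that 3 libraries labelled Odc-/- of TH2 cells were analysed here, and the Dohh set holds 3 WT and 3 libraries labelled Dohh-/- per subset.

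ODC makes putrescine, the first polyamine, from ornithine. DOHH completes hypusine, a modified lysine of the translation factor eIF5A that is built from the polyamine spermidine.

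The members are classic readouts of antigen receptor signaling. Calcium and calcineurin act through NFAT and MEF2 factors on the NR4A genes and on Egr2 and Egr3, and the ERK cascade acts through SRF and its partners on Egr1. NR4A receptors bind DNA without a known natural ligand, are used as reporters of recent receptor stimulation, and support Treg cells while restraining effector T cells. EGR1 accompanies activation, whereas EGR2 and EGR3 are known for restraining T cell responses. The transcripts are short lived, so that values on day 4 describe cells long after the first stimulus.

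The stretches just before the start sites are printed because the NR4A genes shared a type of match there and because Egr2, the EGR gene with the most changes below, had another. They are credited to RefSeq (GRCm38), of which entries were used for 4 of the 6 genes, namely Nr4a1, Nr4a2, Nr4a3 and Egr2. The stretches before Egr1 and Egr3 were not examined here, so that their motif matches are not known from this search. Capitals mark CRE half-sites, the letters TGACG or their complement CGTCA, the core of the site for CREB family factors, and the CArG box, the site of SRF. The stretch of Nr4a1 is chr15:101266596-101266845 on the plus strand, and that of Nr4a2 is chr2:57124004-57124253 on the minus strand. The stretch of Nr4a3 is chr4:48045055-48045152 on the plus strand and ends where the first annotated exon begins, and that of Egr2 is chr10:67537619-67537868 on the plus strand. Those of Nr4a1 and Egr2 lie in introns of longer annotated transcripts, and those of Nr4a2 and Nr4a3 lie upstream of the gene.
Nr4a1: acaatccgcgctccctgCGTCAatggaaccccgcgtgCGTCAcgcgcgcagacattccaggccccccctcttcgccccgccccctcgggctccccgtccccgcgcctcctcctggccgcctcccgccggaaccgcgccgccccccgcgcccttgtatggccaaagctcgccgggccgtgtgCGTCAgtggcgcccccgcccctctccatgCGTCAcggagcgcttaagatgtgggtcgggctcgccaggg
Nr4a2: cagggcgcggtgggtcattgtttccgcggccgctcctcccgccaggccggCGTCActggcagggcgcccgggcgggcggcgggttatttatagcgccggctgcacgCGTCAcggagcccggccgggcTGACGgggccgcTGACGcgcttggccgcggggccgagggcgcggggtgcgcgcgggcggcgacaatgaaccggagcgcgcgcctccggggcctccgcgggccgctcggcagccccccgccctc
Nr4a3: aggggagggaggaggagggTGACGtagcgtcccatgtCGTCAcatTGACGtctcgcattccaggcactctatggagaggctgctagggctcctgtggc
Egr2: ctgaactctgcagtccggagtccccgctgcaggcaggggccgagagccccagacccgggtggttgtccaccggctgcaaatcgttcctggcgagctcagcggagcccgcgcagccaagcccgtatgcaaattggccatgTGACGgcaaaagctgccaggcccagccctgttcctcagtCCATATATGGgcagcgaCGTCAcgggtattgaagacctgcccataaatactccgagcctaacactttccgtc

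In the 250 bases before the start, the CRE half-site was found 4 times in Nr4a1, 4 times in Nr4a2, 4 times in Nr4a3 and 2 times in Egr2, counting both strands. At least 1 such half-site was present in 17.8% of 32851 RefSeq promoters. The match of Nr4a3 nearest its start, from 147 to 143 bases before the start, lies in the part that is not printed. Egr2 alone among the 4 held a CArG box, 72 to 63 bases before the start, which 1.47% of promoters held. Nr4a1 held the GC-rich EGR site GCGGGGGCG on the minus strand, which 2.57% of promoters held. The SP1 site GGGCGG, which 32.7% of promoters held, was found 3 times in Nr4a1, 4 times in Nr4a2 and 1 time in Nr4a3, and 1 match of Nr4a1 overlaps the GC-rich EGR site. The NFAT core GGAAA, which 55.6% of promoters held, was found 1 time in Nr4a2 and 1 time in Egr2. None of the 4 stretches held the full CRE TGACGTCA, the EGR site GCGTGGGCG, the AP-1 site TGANTCA or NBRE, the monomer site of NR4A receptors with the letters AAAGGTCA. These matches are descriptions of letters in a window, and the counts below bear on transcript levels only.

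**Figure D1:**
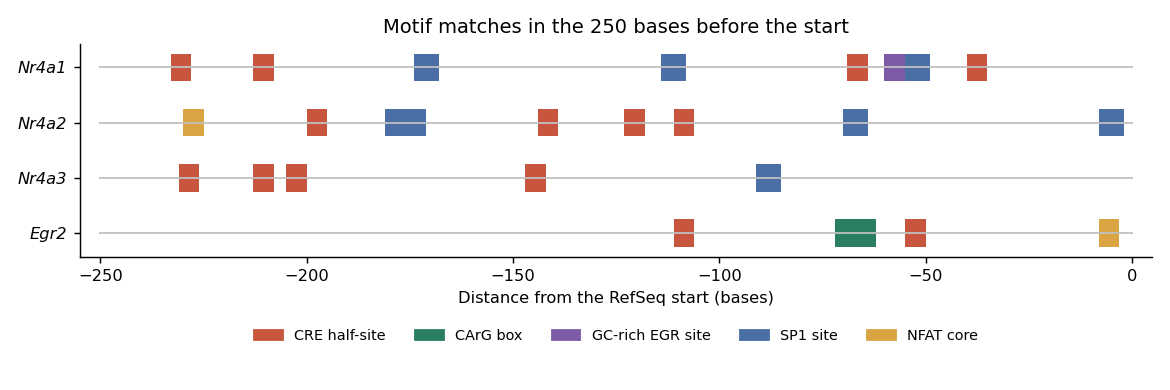
Positions of motif matches on either strand in the 250 bases before the RefSeq start of 4 genes, in bases from the start. The NR4A genes each hold 4 CRE half-sites, and Egr2 holds 2 with a CArG box between them.

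Several properties of the libraries stand before the results. Total counts ranged from 5905374 to 9145214 per library in the Odc set and from 6572148 to 12576933 in the Dohh set. Levels are given as CPM, counts relative to the library total after TMM scaling. The counts of the targeted genes did not follow the labels. Odc1, the gene of ODC, was 510 CPM in WT and 610 CPM in TH1 cells labelled Odc-/- and was called in none of the 4 subsets of the Odc set, and Dohh was called higher in the libraries labelled Dohh-/- of TH1, TH2 and Treg cells, with 36.8 CPM in WT and 99.5 CPM in TH1 cells labelled Dohh-/-. Dohh was also called higher in TH1, TH2 and Treg cells of the Odc set, with 34.9 CPM in WT and 83.4 CPM in TH1 cells labelled Odc-/-. A gene count takes in reads from exons outside the deleted part, and the groups are therefore named as the labels name them. Where the word deficient is used below, it refers to the label. All 12 T cell markers were detected, with a sum of 2628 to 7542 CPM per library, but they were not alike in both genotypes. Cd4, the coreceptor that defines these cultures, in the Dohh set was 661 to 968 CPM in WT libraries and 22.1 to 79.7 CPM in libraries labelled Dohh-/-, and it fell in all 4 subsets (log2 -3.60 to -4.65). Trac, the constant region of the T cell receptor α chain, and Cd28 also fell in all 4 (log2 -1.88 to -2.31 and -1.17 to -2.79), and Thy1 rose (log2 1.10 to 1.81). For the Odc set, Cd4 had log2 fold changes from -0.71 to -1.01 and was called in TH2 cells, together with Cd3d (log2 -1.02) and Cd3g (log2 -1.03). Cd28 fell there in TH17 (log2 -1.55) and Treg cells (log2 -2.23). The sum over T cell markers was 3775 to 4422 CPM in TH1 libraries labelled Odc-/- against 5226 to 6212 CPM in WT, and 2628 to 3097 CPM in TH2 libraries labelled Odc-/- against 4147 to 4865 CPM in WT, with no overlap in either subset. Markers of other cells were in most comparisons higher in the libraries labelled as deficient, but B cell markers were lower in TH1 cells of the Dohh set, with sums of 7.97 to 15.0 CPM against 16.9 to 23.9 CPM in WT. The sum of 10 basophil and mast cell markers was 72.2 to 1411 CPM in libraries labelled Dohh-/- and 5.10 to 25.8 CPM in WT libraries, and 29.9 to 365 CPM in libraries labelled Odc-/- and 6.67 to 50.9 CPM in WT libraries. The sum of 10 myeloid markers was 2.56 to 11541 CPM in libraries labelled Dohh-/- and 0.299 to 26.9 CPM in WT libraries. It reached 755 CPM in libraries labelled Odc-/- and 42.3 CPM in WT libraries of the Odc set. The defining marker Itgam had 0 counts in all libraries of the Dohh set, WT included, where Lyz2 reached 52403 counts. In the Odc set Itgam reached 72 counts in libraries labelled Odc-/- and 23 in WT libraries. Why Itgam was 0 throughout the Dohh set was not tested. The sum of 4 γδ T cell markers was 290 to 690 CPM in libraries labelled Dohh-/- and 14.3 to 40.6 CPM in WT libraries, and 68.5 to 261 CPM in libraries labelled Odc-/- and 6.72 to 30.4 CPM in WT libraries. The sum of 6 CD8+ T or NK cell markers reached 391 CPM in libraries labelled Dohh-/- and 29.0 CPM in WT libraries, and 297 CPM in libraries labelled Odc-/- and 50.2 CPM in WT libraries. In the Dohh set Cd8a reached 322 CPM in libraries labelled Dohh-/-, while Cd8b1 reached 16.4 CPM there and 20.9 CPM in WT libraries. Of the 5 tested in the Dohh set, 3 were called higher and 1 lower in TH1 and in TH2 cells. In TH17 and in Treg cells 4 were called higher and 0 lower. Among 8 B cell markers the sum reached 524 CPM in libraries labelled Odc-/- and 113 CPM in WT libraries of the Odc set, and 60.0 CPM in libraries labelled Dohh-/- and 74.3 CPM in WT libraries of the Dohh set. The gene Blk is on both the B cell and the γδ T cell list. The sum of 6 erythroid markers reached 56.4 CPM in libraries labelled Dohh-/- and 1.36 CPM in WT libraries, and 2.83 CPM in libraries labelled Odc-/- and 3.07 CPM in WT libraries. The part of these cells in the results below was not tested. In these bulk samples, fewer cells that express a gene and less RNA per cell cannot be told apart.

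In WT cells, the Treg subset carried the highest levels of Nr4a1 and Nr4a3, but not of Nr4a2. Nr4a1, also called NUR77, is located at chr15:101254269-101274795. In the Odc set its level was 228, 249, 261 and 200 CPM in the 4 WT Treg libraries, and between 34.3 and 75.2 CPM in all WT libraries of the other subsets. No WT library of another subset came near the lowest Treg library. The mean was 234 ± 26.9 CPM in Treg, 67.5 ± 6.54 in TH17, 52.2 ± 5.29 in TH1 and 38.2 ± 3.41 in TH2 cells (SD, n = 4 each). Nr4a1 was lower in TH2 than in Treg cells by a log2 difference of -2.62 (edgeR quasi-likelihood test, Benjamini-Hochberg adjusted p = 1.82e-13). Its TH1 and TH17 levels, which are neighbors in this order, did not pass the test (log2 difference -0.37, adjusted p = 0.0555). Among WT libraries in the Dohh set the order was the same, with 237 ± 25.7 CPM in Treg, 105 ± 13.4 in TH17, 66.7 ± 2.43 in TH1 and 57.9 ± 5.00 in TH2 cells (SD, n = 3 each), and the difference between TH17 and Treg cells did not pass the test (log2 -1.17, adjusted p = 0.0664).

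Nr4a3, also called NOR1 and located at chr4:48045153-48086447, had the widest range among WT subsets. Its level in the Odc set was 316, 308, 295 and 371 CPM in WT Treg libraries. It was 25.6, 27.0, 21.5 and 30.1 CPM in TH1, 22.0, 26.3, 21.3 and 42.2 CPM in TH17, and 9.92, 10.9, 9.09 and 14.1 CPM in TH2 libraries. Treg libraries were all above, TH2 libraries were all below, and TH1 and TH17 libraries overlapped. TH2 was below Treg by a log2 difference of -4.87 (edgeR, adjusted p = 1.50e-14) and below TH1, where TH1 minus TH2 was 1.24 (adjusted p = 0.000427). Nr4a3 in the Dohh set was 118 ± 23.1 CPM in Treg and 3.93 ± 0.652 CPM in TH2 cells (SD, n = 3 each), a log2 difference of -4.91 (adjusted p = 1.88e-06).

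Nr4a2, also called NURR1 and located at chr2:57106830-57124003, did not share this order. Its level in the Odc set was 24.8, 42.2, 24.2 and 82.9 CPM in WT TH1 libraries and 7.77, 10.7, 10.7 and 13.5 CPM in WT TH17 libraries. The fourth TH1 library lay far above the others, and no TH1 library overlapped with TH17. TH1 minus TH17 was 2.03 on the log2 scale (edgeR, adjusted p = 2.80e-05), and Treg (20.6 ± 3.60 CPM) and TH2 cells (22.6 ± 10.7 CPM) lay between them with no difference that passed (log2 0.13, adjusted p = 0.763). WT levels in the Dohh set ran from 11.6 ± 0.436 CPM in TH17 to 17.5 ± 1.09 CPM in TH1 cells, and the test across subsets did not pass (adjusted p = 0.556).

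Egr2 was high in WT TH2 and Treg cells and low in TH1 and TH17 cells. It is located at chr10:67535475-67542188, and in WT libraries of the Odc set its level was 70.3, 67.0, 62.8 and 78.1 CPM in TH2 and 52.4, 56.4, 58.8 and 87.3 CPM in Treg cells. It was 12.1, 10.5, 10.0 and 11.5 CPM in TH1 and 10.6, 15.7, 12.0 and 24.2 CPM in TH17 cells. The first 2 subsets overlapped with each other and lay above the other 2, which also overlapped. Treg exceeded TH1 (TH1 minus Treg, log2 -2.52, edgeR adjusted p = 1.45e-10), while the differences between TH2 and Treg (log2 0.13, adjusted p = 0.60) and between TH1 and TH17 (log2 -0.50, adjusted p = 0.0704) did not pass. The means in the Dohh set were 21.3 ± 5.95 in Treg, 20.7 ± 1.48 in TH2, 9.82 ± 1.64 in TH17 and 7.50 ± 0.911 CPM in TH1 cells (SD, n = 3 each). TH1 minus Treg passed (log2 -1.51, edgeR adjusted p = 0.0417), and the test across all 4 subsets missed the threshold (adjusted p = 0.0509). It passed with the replicate number as a block (adjusted p = 0.0299), with RLE size factors (adjusted p = 0.0461) and with DESeq2 (adjusted p = 0.0153). With 1 library left out it passed in 4 fits, each without a library labelled Dohh-/-, and in the other fits the edgeR adjusted p reached 0.115. Over all alternatives the adjusted p reached 0.154.

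Egr3, located at chr14:70077203-70082614, followed Nr4a1 and Nr4a3 with 48.8, 49.1, 48.3 and 44.5 CPM in WT Treg libraries of the Odc set. All other WT libraries of that set had 5.78 to 15.7 CPM. TH2 minus Treg was -2.26 (edgeR, adjusted p = 1.27e-07), and no difference among TH1, TH2 and TH17 passed the test. Treg in the Dohh set was again the highest, with 14.7 ± 2.56 CPM against 4.58 ± 0.887 CPM in TH1 cells, but the test across subsets did not pass (adjusted p = 0.305).

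Egr1, on chromosome 18, had the smallest ratio of the highest to the lowest WT subset mean among the 6 members in the Odc set. Its level there was 47.9, 51.9, 55.5 and 70.6 CPM in WT TH17 libraries and 90.8 to 144 CPM in all other WT libraries. TH17 was the low subset, with a log2 difference of -1.16 to Treg (edgeR, adjusted p = 1.31e-07), and no difference among TH1, TH2 and Treg passed the test. WT means in the Dohh set ran from 35.9 CPM in TH1 and in TH17 to 60.5 CPM in Treg cells, and the test across subsets did not pass (adjusted p = 0.520).

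All 6 members differed between WT subsets in the Odc set, where 71.1% of all genes tested did, and 2 of 6, Nr4a1 and Nr4a3, in the Dohh set, where 40.1% did. Leaving out, in the Dohh set, replicate 3 of the TH1 libraries labelled Dohh-/- raised this count to 5, with 45.5% of all genes passing in that fit. The tables were deposited and scaled separately, and levels are not compared between them.

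Per kb of exon, the order of the members in WT Treg cells of the Odc set was Nr4a1 (66.8 CPM per kb), Nr4a3 (53.9), Egr1 (28.2), Egr2 (18.8), Egr3 (10.8) and Nr4a2 (5.07). In WT TH2 cells it was Egr1 (26.9 CPM per kb), Egr2 (20.5), Nr4a1 (10.9), Nr4a2 (5.57), Egr3 (2.26) and Nr4a3 (1.84). Nr4a3 thus held the second place in Treg and the last in TH2 cells.

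**Figure D2:**
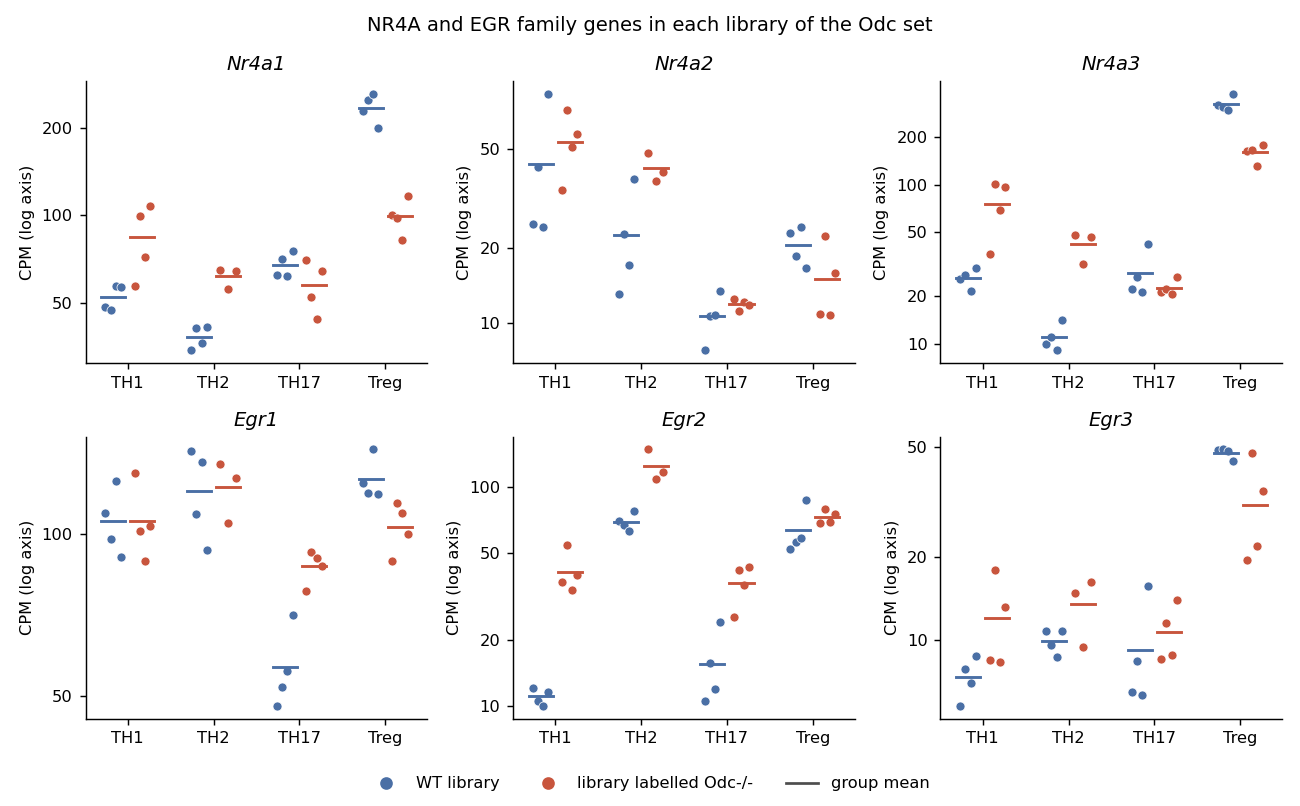
Level of each member in each library of the Odc set, in CPM on a log axis, by subset. Points are libraries, WT in blue and those labelled Odc-/- in red, and lines are group means. Nr4a1, Nr4a3 and Egr3 stand highest in WT Treg cells, and Egr2 is higher in all libraries labelled Odc-/- than in all WT libraries of TH1, TH2 and TH17 cells.

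Libraries labelled as deficient were then set against WT libraries of their own subset and set. A member was called when the fold change exceeded 2 and the adjusted p-value from edgeR's quasi-likelihood test was below 0.05 across all genes tested. In the Odc set, 2 of 6 members were called in TH1 (21.4% of all genes tested), 1 in TH2 (25.1%), 1 in TH17 (15.6%) and 2 in Treg cells (24.0%). In the Dohh set, 5 were called in TH1 (29.1%), 1 in TH2 (25.9%), 2 in TH17 (31.4%) and 2 in Treg cells (32.7%). Outside TH1 cells labelled Dohh-/-, these shares are near those of all genes. With an adjusted p below 0.05 alone, 4 members passed in TH1 (56.8% of all genes), 4 in TH2 (59.2%), 2 in TH17 (47.8%) and 3 in Treg cells (59.8%) of the Odc set. By direction, all calls in TH1, TH2 and TH17 cells were higher and all calls in Treg cells were lower with every library in the fit. Of all genes in the Odc set, 10.2% in TH1, 11.5% in TH2 and 8.35% in TH17 cells were called higher and 10.1% in Treg cells lower. For the Dohh set these shares were 14.8%, 14.3%, 17.3% and 15.2%.

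In Treg cells, Nr4a1 and Nr4a3, the NR4A genes that were highest in WT Treg cells, fell in both sets. Nr4a1 was 228, 249, 261 and 200 CPM in WT and 99.8, 97.5, 82.1 and 116 CPM in Treg libraries labelled Odc-/-. The groups did not overlap, and the level fell by 1.25 ± 0.153 on the log2 scale (SE, edgeR adjusted p = 1.80e-07). Nr4a1 in the Dohh set was 208, 246 and 257 CPM in WT and 33.9, 29.5 and 22.1 CPM in Treg libraries labelled Dohh-/-. The fall was 8.32-fold (log2 -3.06 ± 0.429, adjusted p = 7.96e-06), the largest decrease of any member in the 8 comparisons, and the difference between the 2 deficiencies passed its own test (Odc effect minus Dohh effect, log2 1.77 ± 0.394, adjusted p = 0.000615).

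Nr4a3 was 316, 308, 295 and 371 CPM in WT and 163, 164, 131 and 178 CPM in Treg libraries labelled Odc-/-. All 4 deficient libraries were below all WT libraries, and the level fell by 1.02 ± 0.216 on the log2 scale (SE, edgeR adjusted p = 0.000238), just past the 2-fold limit. Without replicate 3 of the Treg libraries labelled Odc-/- or without Treg WT replicate 4 the fall was 0.94 or 0.95, and the call ended. Nr4a3 in the Dohh set was 123, 92.8 and 138 CPM in WT and 27.8, 35.7 and 33.9 CPM in Treg libraries labelled Dohh-/-, a fall by 1.86 ± 0.490 (adjusted p = 0.00357) with no overlap.

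Markers of other cells moved with these falls in both sets. In Treg libraries labelled Odc-/-, the sum of CD8+ T or NK cell markers was 199 to 297 CPM against 25.6 to 50.2 CPM in WT, that of γδ T cell markers 182 to 240 against 6.72 to 13.1 CPM, and that of myeloid markers 94.6 to 755 against 15.2 to 35.0 CPM, with no overlap. In Treg libraries labelled Dohh-/-, the sum of CD8+ T or NK cell markers was 214 to 391 CPM against 23.0 to 29.0 CPM in WT. The sum of myeloid markers in the Treg libraries labelled Dohh-/- was 342, 4360 and 4803 CPM, against 17.7 to 21.1 CPM in WT, with 8 of the 9 markers tested called higher. Replicate 1, which has the lowest myeloid sum, has the highest sum of γδ T cell markers, at 690, 615 and 510 CPM in these libraries. With replicate 1 as the only library labelled Dohh-/-, chosen after seeing the data, the log2 fold changes were -2.84 for Nr4a1 and -2.11 for Nr4a3. The myeloid sum of replicate 1 was still far above WT, and the part of other cells in these falls was not tested. With all libraries in the fit, Nr4a2 had 0.992 times the WT level in Treg cells labelled Dohh-/- (edgeR adjusted p = 0.985). Its log2 fold change in Treg cells labelled Odc-/- was -0.46 ± 0.333 (adjusted p = 0.237). Egr3, the EGR gene that was highest in WT Treg cells, was 19.6, 47.5, 22.0 and 34.8 CPM in Treg libraries labelled Odc-/-, where WT had 44.5 to 49.1 CPM. The second of these lay within the WT range, and the log2 fold change of -0.62 ± 0.258 had an adjusted p of 0.0398 without reaching 2-fold. Egr1 and Egr2 did not pass in either table. Egr2 was 20.5, 15.7 and 27.5 CPM in WT and 12.2, 12.7 and 12.2 CPM in Treg libraries labelled Dohh-/-, which did not overlap (log2 -0.79 ± 0.519, adjusted p = 0.210).

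In TH1 cells of the Odc set the calls were in the other direction. Nr4a3 was 25.6, 27.0, 21.5 and 30.1 CPM in WT and 36.4, 101, 69.5 and 96.6 CPM in libraries labelled Odc-/-. All deficient libraries were above all WT libraries, replicate 1 by the least, and the level rose by 1.54 ± 0.231 on the log2 scale (SE, edgeR adjusted p = 8.17e-06). Egr2 was 12.1, 10.5, 10.0 and 11.5 CPM in WT and 36.8, 54.2, 33.9 and 39.6 CPM in TH1 libraries labelled Odc-/-. It rose 3.72-fold (log2 1.90 ± 0.215, adjusted p = 3.80e-07) with no overlap.

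Another 2 members had an adjusted p below 0.05 in these cells with less than a 2-fold change. Nr4a1 had 48.1, 47.1, 56.9 and 56.6 CPM in WT and 56.9, 99.2, 71.8 and 108 CPM in TH1 libraries labelled Odc-/- (log2 0.69 ± 0.156, adjusted p = 0.000557). Replicate 1 of the libraries labelled Odc-/- stood next to the highest WT library, and the other 3 stood above. Egr3 had 7.33 ± 1.26 CPM in WT and 12.0 ± 4.60 CPM in TH1 cells labelled Odc-/- (SD, n = 4 each, log2 0.71 ± 0.298, adjusted p = 0.0430), with overlapping groups. Egr1, at 106 CPM in both groups, and Nr4a2 (log2 0.30 ± 0.313, adjusted p = 0.431) did not pass. In these TH1 libraries labelled Odc-/-, the sum of B cell markers was 108 to 390 CPM against 33.1 to 71.4 CPM in WT, that of γδ T cell markers 85.8 to 118 against 12.5 to 28.1 CPM, and that of basophil and mast cell markers 29.9 to 218 against 15.4 to 20.2 CPM. None of these sums overlapped, and their part in the values was not tested.

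In TH2 cells of the Odc set the member called was again Nr4a3. It was 9.92, 10.9, 9.09 and 14.1 CPM in WT and 48.1, 31.6 and 46.5 CPM in the 3 libraries labelled Odc-/-, far above every WT library. The rise was 3.82-fold (log2 1.93 ± 0.259, edgeR adjusted p = 1.41e-06). Nr4a1 was 34.3, 40.9, 36.4 and 41.1 CPM in WT and 64.8, 55.8 and 64.2 CPM in TH2 libraries labelled Odc-/-, which did not overlap but stayed under 2-fold (log2 0.69 ± 0.169, adjusted p = 0.00101). Egr2 was 70.3, 67.0, 62.8 and 78.1 CPM in WT and 149, 109 and 117 CPM in TH2 libraries labelled Odc-/-, again without overlap and under 2-fold (log2 0.85 ± 0.202, adjusted p = 0.000832). Nr4a2 (log2 0.89 ± 0.343, adjusted p = 0.0283) had 37.1 to 47.8 CPM in libraries labelled Odc-/-, and WT replicate 4, at 37.6 CPM, was the only WT library in that range. Without that library the fold change was 1.24 on the log2 scale and was called. Egr1 (log2 0.02) and Egr3 (log2 0.44 ± 0.306, adjusted p = 0.220) did not pass. In the TH2 libraries labelled Odc-/-, the sum of B cell markers was 319 to 524 CPM against 48.0 to 113 CPM in WT, that of basophil and mast cell markers 51.8 to 92.1 against 6.67 to 12.1 CPM, and that of γδ T cell markers 68.5 to 78.1 against 9.74 to 21.9 CPM, again without overlap and with their part not tested.

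In TH17 cells of the Odc set Egr2 rose and no NR4A gene passed. Egr2 was 10.6, 15.7, 12.0 and 24.2 CPM in WT and 25.4, 41.7, 35.6 and 43.1 CPM in libraries labelled Odc-/-. The lowest deficient library lay just above the highest WT library, and the rise was 2.34-fold (log2 1.22 ± 0.205, edgeR adjusted p = 4.21e-05). Egr1 was 47.9, 51.9, 55.5 and 70.6 CPM in WT and 78.4, 92.7, 90.2 and 87.3 CPM in TH17 libraries labelled Odc-/-. These did not overlap and differed by less than 2-fold (log2 0.63 ± 0.140, adjusted p = 0.000753), and TH17 still had the lowest mean in cells labelled Odc-/-, where TH2 minus TH17 was 0.49 (log2, adjusted p = 0.0109). Log2 fold changes were -0.23 ± 0.155 for Nr4a1, -0.31 ± 0.234 for Nr4a3, 0.16 ± 0.354 for Nr4a2 and 0.22 ± 0.289 for Egr3. In the TH17 libraries labelled Odc-/-, the sum of γδ T cell markers was 151 to 261 CPM against 13.5 to 30.4 CPM in WT, that of basophil and mast cell markers 64.7 to 365 against 31.5 to 50.9 CPM, and that of myeloid markers 43.1 to 583 against 14.2 to 42.3 CPM. These did not overlap, and their part in the values was not tested.

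**Figure D3:**
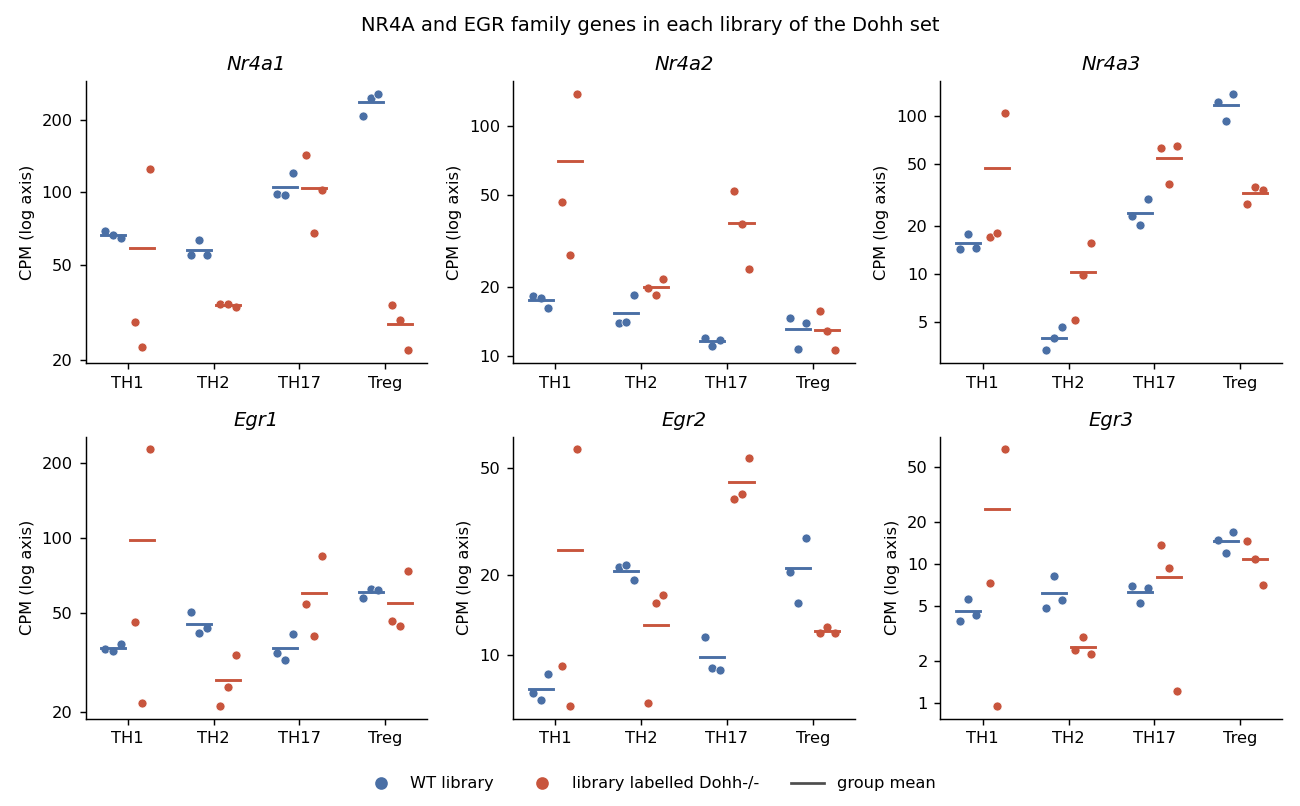
Level of each member in each library of the Dohh set, in CPM on a log axis, by subset. Points are libraries, WT in blue and those labelled Dohh-/- in red, and lines are group means. Replicate 3 of the TH1 libraries labelled Dohh-/-, the rightmost red point of that subset, is the highest TH1 library in all 6 panels, and Nr4a1 and Nr4a3 are lower in all Treg libraries labelled Dohh-/- than in all WT Treg libraries.

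In TH1 cells of the Dohh set, 1 library set most of the calls. Egr1 was 35.5, 35.0 and 37.3 CPM in WT and 45.8, 21.6 and 227 CPM in libraries labelled Dohh-/-. Egr2 was 7.20, 6.77 and 8.52 CPM in WT and 9.10, 6.47 and 58.9 CPM in libraries labelled Dohh-/-. Egr3 was 3.89, 5.58 and 4.26 CPM in WT and 7.26, 0.947 and 67.4 CPM in libraries labelled Dohh-/-. In each of these genes replicate 3 was several times above all other libraries, and replicate 2 was below all WT libraries.

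The log2 fold changes in these cells were 1.45 ± 0.512 for Egr1, 1.74 ± 0.536 for Egr2, 2.47 ± 0.855 for Egr3 and 1.58 ± 0.498 for Nr4a3 (SE, edgeR adjusted p = 0.0240, 0.0112, 0.0220 and 0.0129). Without replicate 3 they were -0.08, 0.07, -0.09 and 0.18, and none of them was called. With replicate 1 as the only library labelled Dohh-/- they were 0.35, 0.29, 0.67 and 0.14. The call of Egr1 also ended without any of the 3 WT TH1 libraries, and that of Egr3 without WT replicate 1 or 3. Nr4a1, at 69.2, 66.5 and 64.4 CPM in WT and 29.0, 22.7 and 125 CPM in TH1 libraries labelled Dohh-/-, had a log2 fold change of -0.18 with replicate 3 and of -1.35 without it, where it was called lower. Nr4a2 was the exception, at 18.3, 17.9 and 16.3 CPM in WT and 46.9, 27.6 and 138 CPM in libraries labelled Dohh-/-, all 3 above WT. It rose by 2.02 ± 0.378 on the log2 scale (adjusted p = 0.000189), and remained called without replicate 3, with a log2 fold change of 1.10. The sum of myeloid markers in this group was 2.56, 223 and 3.09 CPM and that of basophil and mast cell markers 72.2, 367 and 434 CPM. The sum of γδ T cell markers was 290, 336 and 610 CPM and that of CD8+ T or NK cell markers 32.2, 42.5 and 96.3 CPM, so that replicate 3, which set the calls, was the highest library in these and in basophil and mast cell markers, but not in myeloid markers. The part of these cells in the values of replicate 3 was not tested. Replicate 2 had a TMM factor of 0.752.

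In TH17 cells of the Dohh set, Egr2 and Nr4a2 rose. Egr2 was 11.7, 8.98 and 8.78 CPM in WT and 38.3, 40.0 and 54.8 CPM in libraries labelled Dohh-/-, a 4.50-fold rise with no overlap (log2 2.17 ± 0.533, edgeR adjusted p = 0.00221). Nr4a2 was 11.9, 11.1 and 11.8 CPM in WT and 52.3, 37.4 and 23.9 CPM in libraries labelled Dohh-/-, all above WT (log2 1.71 ± 0.381, adjusted p = 0.000914). By a test of the 2-fold change itself, the Nr4a2 call ended (adjusted p = 0.0596). Nr4a3 was 23.4, 20.4 and 29.7 CPM in WT and 62.7, 36.9 and 64.4 CPM in libraries labelled Dohh-/-, which did not overlap and missed the threshold (log2 1.16 ± 0.487, adjusted p = 0.0532). It was called when the 6 TH17 libraries were fitted alone (log2 1.19, adjusted p = 0.00663), with DESeq2 (adjusted p = 0.0285) and with RLE size factors (adjusted p = 0.0453). A mean count of at least 50 (adjusted p = 0.0430) and the replicate block (adjusted p = 0.0219) also gave the call. So did leaving out any of 6 single libraries, where the log2 fold change was 1.15 to 1.37. With any other single library left out it was not called, with an edgeR adjusted p of up to 0.147 and a log2 fold change down to 1.04. Over all alternatives the adjusted p reached 0.542. Egr1 (log2 0.73 ± 0.508), Egr3 (log2 0.39 ± 0.829) and Nr4a1 (log2 -0.02 ± 0.395) did not pass, and Egr3 had 13.7, 9.40 and 1.21 CPM in the libraries labelled Dohh-/-.

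The sum of myeloid markers in these TH17 libraries labelled Dohh-/- was 567, 8778 and 11541 CPM, against 23.3 to 26.9 CPM in WT, with all 9 markers tested called higher. The sum of γδ T cell markers was 606, 580 and 468 CPM in the same libraries, with replicate 1 the highest. With replicate 1, the lowest in myeloid sum, as the only library labelled Dohh-/-, the log2 fold changes were 1.97 for Egr2 and 2.18 for Nr4a2. This choice was made after seeing the data, and the myeloid sum of replicate 1, at 567 CPM, was still far above WT. The part of these cells in the values was not tested.

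In TH2 cells of the Dohh set, 1 member was called, Nr4a3, at 3.29, 3.91 and 4.60 CPM in WT and 5.14, 9.88 and 15.8 CPM in libraries labelled Dohh-/-. It was higher in all 3, but replicate 1 only slightly, and the log2 fold change of 1.39 ± 0.558 had an edgeR adjusted p of 0.0485. The call ended without any of 20 of the 24 libraries, libraries of other subsets among them, and the log2 fold change was 0.94 without replicate 3 of the TH2 libraries labelled Dohh-/-. With replicate 1 as the only library labelled Dohh-/- it was 0.39. The sum of basophil and mast cell markers in these TH2 libraries was 81.4, 488 and 528 CPM, that of CD8+ T or NK cell markers 32.5, 35.3 and 69.0 CPM and that of erythroid markers 2.31, 5.40 and 16.5 CPM, all with the same order of the 3 libraries as Nr4a3. The sum of γδ T cell markers, at 442, 338 and 304 CPM, had the reverse order. The part of these cells in the Nr4a3 values was not tested. All 5 other members had groups that did not overlap, with Nr4a1, Egr1, Egr2 and Egr3 lower and Nr4a2 higher in libraries labelled Dohh-/-, and none passed the test. Of all genes tested, 62.4% had groups that did not overlap in this comparison. Nr4a1 had 55.1, 63.7 and 54.9 CPM in WT and 34.2, 34.2 and 33.3 CPM in libraries labelled Dohh-/- (log2 -0.77 ± 0.403, adjusted p = 0.126). Egr3 had 4.86, 8.25 and 5.49 CPM in WT and 2.41, 2.95 and 2.23 CPM in libraries labelled Dohh-/- (log2 -1.28 ± 0.894, adjusted p = 0.254). When only the 6 TH2 libraries entered the fit, Egr3 was called lower (log2 -1.29).

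**Figure D4:**
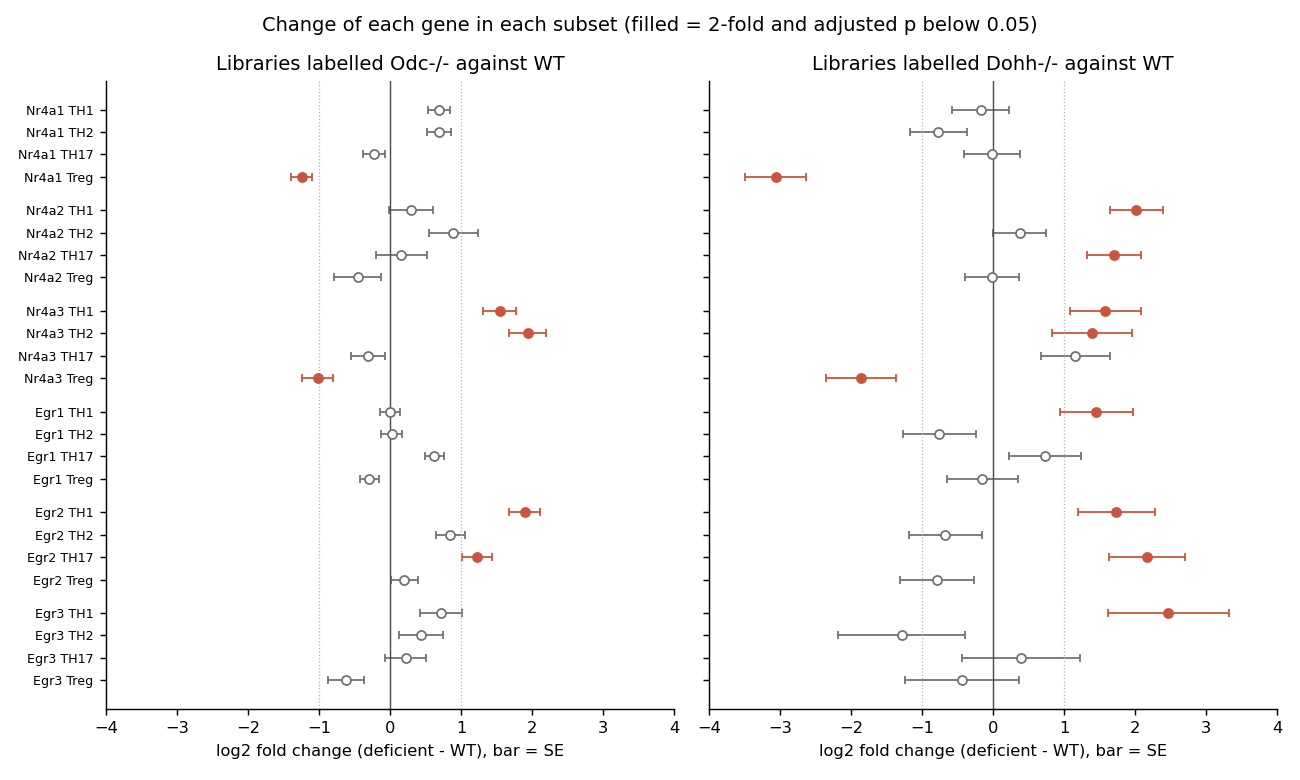
Log2 fold change of each member between libraries labelled as deficient and WT libraries, by subset, for Odc-/- (left) and Dohh-/- (right). Bars are SE from the edgeR fit, filled points passed both thresholds, and dotted lines mark 2-fold. Filled points lie to the right in TH1, TH2 and TH17 cells and to the left in Treg cells.

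Whether the effect of deficiency differs between subsets was tested with an interaction term between genotype and subset. In the Odc set, 5 of 6 members passed (34.8% of all genes tested). These were Nr4a3 (edgeR adjusted p = 1.86e-07), Nr4a1 (adjusted p = 2.56e-07), Egr2 (adjusted p = 0.000369), Egr1 (adjusted p = 0.00428) and Egr3 (adjusted p = 0.0361), and Nr4a2 did not pass (adjusted p = 0.138). In the Dohh set, 4 of 6 passed (17.9% of all genes tested), namely Nr4a1 (adjusted p = 0.00219), Nr4a3 (adjusted p = 0.00391), Egr2 (adjusted p = 0.00780) and Nr4a2 (adjusted p = 0.0172). Egr3 lost its call in the Odc set without any of 12 libraries, the highest adjusted p being 0.0865 without replicate 1 of the Treg libraries labelled Odc-/-. Nr4a2 gained one in the Odc set without replicate 4 of the WT TH1 (adjusted p = 0.0224) or WT TH2 libraries (adjusted p = 0.0351). In the Dohh set Egr1 passed without any single TH1 library labelled Dohh-/- (adjusted p = 0.00807 to 0.0454) and Egr3 without replicate 2 of them (adjusted p = 0.0133). With DESeq2, Egr1 (adjusted p = 0.0316) and Egr3 (adjusted p = 0.0355) passed as well in the Dohh set. Without a low-count filter, Nr4a2 in the Dohh set (edgeR adjusted p = 0.0675) and Egr3 in the Odc set (adjusted p = 0.0645) did not pass. With the replicate number as a block, Nr4a2 passed in the Odc set (adjusted p = 0.0467). For Nr4a3 the fold changes had opposite signs in Treg and in TH1 and TH2 cells in both sets. The Nr4a1 effect ranged from 0.69 in TH2 to -1.25 in Treg cells in the Odc set and from -0.02 in TH17 to -3.06 in Treg cells in the Dohh set (log2).

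The order of the subsets in Nr4a1 was not the same in deficient and in WT cells, and no test of the spread over subsets was made. In cells labelled Odc-/- the means were 83.9, 61.6, 57.5 and 98.9 CPM in TH1, TH2, TH17 and Treg cells, where WT had 52.2, 38.2, 67.5 and 234 CPM. TH1 and Treg cells, which differed by -2.17 in WT (log2, adjusted p = 7.59e-12), differed by -0.24 in cells labelled Odc-/-, which did not pass (adjusted p = 0.238). In cells labelled Dohh-/- the means were 58.9, 33.9, 104 and 28.5 CPM in TH1, TH2, TH17 and Treg cells, where WT had 66.7, 57.9, 105 and 237 CPM. TH17 exceeded Treg by 1.87 (log2, adjusted p = 0.00807), and TH2 minus Treg was 0.25, which did not pass (adjusted p = 0.745). The TH1 mean rested on replicate 3, at 125 CPM, while the other TH1 libraries had 29.0 and 22.7 CPM and lay within the range of the Treg libraries. Nr4a3 kept Treg as the highest subset in cells labelled Odc-/-, with TH2 minus Treg at -1.92 (log2, adjusted p = 5.85e-07) against -4.87 in WT. In cells labelled Dohh-/- its means were 46.6, 10.3, 54.6 and 32.5 CPM in TH1, TH2, TH17 and Treg cells, with TH2 minus Treg at -1.66 (log2, adjusted p = 0.0279) and TH17 minus Treg at 0.75, which did not pass (adjusted p = 0.341). The TH1 mean again rested on replicate 3, at 105 CPM, and the other TH1 libraries, at 17.2 and 18.1 CPM, lay below all Treg libraries.

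The Odc effect and the Dohh effect were compared in a joint fit of both sets, in which 18.5%, 15.7%, 21.4% and 26.2% of all genes tested had different effects in TH1, TH2, TH17 and Treg cells. Of 24 such differences among the members, 7 passed. In TH1 cells these were Egr1 (Odc effect minus Dohh effect, log2 -1.46 ± 0.472, adjusted p = 0.0254) and Nr4a2 (-1.73 ± 0.499, adjusted p = 0.0119). Neither passed without replicate 3 of the TH1 libraries labelled Dohh-/-, with differences of 0.05 and -0.83, whereas Nr4a1 (2.02), Nr4a3 (1.34) and Egr2 (1.79) then passed. The Nr4a2 difference also ended without replicate 4 of the WT TH1 libraries of the Odc set (-1.24), and the Egr1 difference without replicate 3 of those libraries (-1.37) or WT TH1 replicate 1 or 2 of the Dohh set (-1.45 and -1.44). In TH2 cells they were Nr4a1 (1.48 ± 0.412, adjusted p = 0.0104) and Egr2 (1.53 ± 0.515, adjusted p = 0.0354), both with positive fitted fold changes in the Odc set and negative ones in the Dohh set. In TH17 cells they were Nr4a2 (-1.60 ± 0.527, adjusted p = 0.0246) and Nr4a3 (-1.51 ± 0.508, adjusted p = 0.0278), and in Treg cells Nr4a1 alone, given above. The Egr2 difference in TH2 cells ended without any of 8 TH2 libraries, at 1.22 without replicate 1 of those labelled Dohh-/-. In TH17 cells both differences ended without replicate 4 of the WT libraries of the Odc set (Nr4a2 -1.48, Nr4a3 -1.25), without replicate 1 of those labelled Dohh-/- (Nr4a2 -1.31, Nr4a3 -1.40) and without WT replicate 2 of the Dohh set (Nr4a2 -1.57, Nr4a3 -1.39). The Nr4a3 difference also ended without replicate 3 of those labelled Dohh-/- (-1.38) or WT replicate 1 (-1.48).

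The levels of Nr4a1 and Nr4a3 went together across libraries, with a Pearson correlation of log2 CPM of 0.93 over 31 libraries of the Odc set and 0.59 over 24 libraries of the Dohh set. Egr3 correlated with Nr4a3 at 0.87 and 0.51. Nr4a2 was unlike Nr4a1, at 0.00 and -0.01. These are descriptions over libraries that share subsets, genotypes and sets of samples. The genes most like each member, by the mean correlation over both tables, were 4930523C07Rik (0.91), Irf9 (0.87) and Ncoa7 (0.86) for Nr4a1, Serpinb9b (0.79), Serpine2 (0.76) and Adora2a (0.76) for Nr4a2, and Mndal (0.91), Rgs16 (0.87) and Cyth3 (0.87) for Nr4a3. For Egr1 they were Nab2 (0.78), the gene of an EGR corepressor, Egr2 (0.64) and Lrrc57 (0.63). For Egr2 they were Dnmt3a (0.78), the gene of a DNA methyltransferase, P2ry1 (0.76) and Nrgn (0.74), and for Egr3 Mtmr1 (0.84), Rgs3 (0.78) and Gm1966 (0.77).

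Genes of the pathways around the members are given below by lists, with the same thresholds. The TH1 values of the Dohh set include replicate 3 of the libraries labelled Dohh-/-, which set most member calls there. The list genes were not examined without it. The shares to read them against are the 15.6% to 32.7% of all genes called per comparison, given above, and the median of all genes was between -0.00 and 0.07 on the log2 scale. Of 17 calcineurin and NFAT genes in the Dohh set, 4, 4, 8 and 5 genes were called in TH1, TH2, TH17 and Treg cells, of which 3, 3, 7 and 5 were lower, with medians of -0.53, -0.58, -0.80 and -0.60 on the log2 scale. In the Odc set 2, 3, 0 and 2 were called. Rcan3, an inhibitor of calcineurin, fell in all 4 subsets of the Dohh set (log2 -1.31 to -1.89) and in TH1 and TH2 cells of the Odc set. Plcg1, the phospholipase that starts the calcium signal, and Nfat5, an NFAT family member that does not need calcineurin, also fell in all 4 subsets of the Dohh set. Plcg1 was 533 CPM in WT and 132 CPM in Treg cells labelled Dohh-/- (log2 -2.02), and Nfat5 was 106 and 25.9 CPM (log2 -2.03). Ppp3ca, the catalytic calcineurin subunit, rose in TH1 and TH2 cells of both sets and in TH17 cells of the Dohh set, from 11.5 to 41.9 CPM in TH2 cells labelled Odc-/- (log2 1.87).

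Among 12 genes of SRF, its ETS partners, MRTF, MEF2 and CREB family factors, 1 or 2 were called in each of the 8 comparisons, with list medians from -0.41 to 0.16 (log2). Mef2c, a MEF2 factor, rose in TH1, TH2 and Treg cells of the Odc set, from 14.2 to 91.9 CPM in TH2 cells (log2 2.69), and in TH17 and Treg cells of the Dohh set. B cells and myeloid cells also express Mef2c. In those TH1, TH2 and Treg cells of the Odc set, 7, 6 and 7 of 8 B cell markers were called higher, and their part in the Mef2c values was not tested. Crem, a CREB family factor, fell in TH17 cells of both sets, from 147 to 49.1 CPM in cells labelled Odc-/- (log2 -1.58), and in Treg cells labelled Odc-/- (log2 -1.89). Mrtfb was called in TH1 cells labelled Dohh-/- alone (log2 -1.09) and Elk4 in TH2 cells labelled Dohh-/- alone (log2 -1.43).

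Of 15 genes of the ERK cascade, 1 to 4 were called per comparison, with list medians from -0.46 to -0.05 (log2). Hras, a RAS GTPase, rose in all 8, from 27.4 to 73.4 CPM in TH1 cells labelled Odc-/- (log2 1.43) and from 39.8 to 169 CPM in TH1 cells labelled Dohh-/- (log2 2.08). Rasgrp1, which activates RAS after receptor stimulation, fell in TH1, TH2 and Treg cells of the Dohh set (log2 -1.80, -1.33 and -1.60). Rps6ka3, a kinase below ERK, fell in TH17 cells of both sets (log2 -1.26 and -1.46), and Ptpn22, a phosphatase that restrains receptor signaling, fell in Treg cells labelled Odc-/- (log2 -1.20).

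The list of 10 feedback inhibitors of ERK changed in both directions, with 4 to 5 called per subset in the Odc set and 6 to 7 in the Dohh set, and with list medians from -1.20 to 0.09 (log2). Spry2 and Spry4, Sprouty genes, rose in all 8 comparisons, and Spry2 was 2.36 CPM in WT and 25.5 CPM in Treg cells labelled Odc-/- (log2 3.43) and 1.21 and 42.2 CPM in the Dohh set (log2 5.07). Spry4 rose by 1.38 to 4.50 on the log2 scale. Spred3, a Sprouty-related gene, fell in all 8 (log2 -1.65 to -3.57), and Spred2 in 7, from 133 to 34.7 CPM in Treg cells labelled Odc-/- (log2 -1.94).

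Of 10 partners and corepressors of the members, 9 could be tested in the Odc set and 8 in the Dohh set, with 1 or 2 called per comparison and list medians from -0.36 to 0.16 (log2). Egr4, the fourth EGR family gene, was tested in the Odc set only and was called higher in all 4 subsets there, at 0.277 CPM in WT and 1.30 CPM in Treg cells labelled Odc-/-. Rxra, a nuclear receptor that pairs with NR4A1 and NR4A2, rose in TH1 (log2 1.21) and Treg cells (log2 1.49) of the Odc set and in Treg cells of the Dohh set (log2 1.27), and fell in TH2 cells labelled Dohh-/- (log2 -1.77). Ncor1, a corepressor of nuclear receptors, fell in all 4 subsets of the Dohh set (log2 -1.01 to -1.44).

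A list of 18 genes linked to T cell anergy and to EGR2 and EGR3 changed in both directions. In the Odc set 5, 10, 7 and 7 were called in TH1, TH2, TH17 and Treg cells, of which 1, 3, 3 and 2 were higher. In the Dohh set 10, 9, 12 and 12 were called, of which 5, 5, 6 and 7 were higher. The list medians ran from -0.58 to 0.31 (log2). Crtam, an adhesion receptor of cytotoxic T cells, rose in all 8 comparisons (log2 1.83 to 5.20). Nrn1, also called neuritin, fell in 7, from 180 to 16.2 CPM in Treg cells labelled Odc-/- (log2 -3.48) and from 79.6 to 2.32 CPM in Treg cells labelled Dohh-/- (log2 -5.10). Ndrg1 also fell in 7 (log2 -2.24 to -3.65 where called). Nrgn, a calmodulin-binding protein gene and 1 of the 3 genes most like Egr2, was called in 7, higher in 6 and lower in TH2 cells labelled Odc-/- (12.1 to 4.75 CPM, log2 -1.34).

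Of 23 other immediate-early genes, 3 or 4 were called per subset in the Odc set and 2 to 8 of 22 in the Dohh set, with list medians from -0.37 to 0.27 (log2). Gadd45b rose in all 8 comparisons, from 12.5 to 48.4 CPM in TH1 cells labelled Odc-/- (log2 1.96) and from 14.9 to 43.4 CPM in Treg cells labelled Dohh-/- (log2 1.54). Fos, the partner of JUN in AP-1, fell in Treg cells labelled Odc-/- (16.1 to 3.62 CPM, log2 -2.14) and rose in TH1 (log2 1.95) and TH17 cells (log2 1.28) of the Dohh set. Btg2 fell in TH1 (log2 -1.24) and TH2 cells (log2 -1.21) of the Odc set and in Treg cells labelled Dohh-/- (log2 -1.45), and Atf3, a stress-induced factor, rose in TH17 cells of both sets (log2 1.41 and 2.06) and in Treg cells labelled Dohh-/- (log2 1.94).

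Of 16 activation-induced surface proteins, 2 to 5 were called per subset in the Odc set and 10 to 12 in the Dohh set, with list medians from -0.89 to 0.08 (log2). Cd40lg, the ligand of CD40, fell in all 4 subsets of the Dohh set, from 63.5 to 3.54 CPM in TH1 cells (log2 -4.11), and in Treg cells labelled Odc-/- (log2 -1.11), while it was 113 CPM in both groups of TH1 cells of the Odc set. Ctla4, an inhibitory receptor, fell in 7 comparisons (log2 -1.06 to -1.96), and Tnfrsf18, also called GITR, in 6 (log2 -1.11 to -1.46). Cd160, a receptor that cytotoxic and innate-like lymphocytes carry, rose in all 8 (log2 2.61 to 5.79). The sum of γδ T cell markers was higher in the same libraries without overlap. That of CD8+ T or NK cell markers overlapped with WT in TH2 (16.1 to 24.3 against 14.1 to 23.8 CPM) and TH17 cells (47.6 to 82.0 against 32.4 to 50.1 CPM) of the Odc set. It was higher without overlap in the other comparisons. The part of these cells in the Cd160 and Crtam values was not tested.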

How the data were processed

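Libraries were made with a TruSeq stranded mRNA kit and sequenced on an Illumina HiSeq. The submitters' processing notes name STAR, featureCounts, DESeq2, deepTools and mm10, and the annotation release and the strand setting are not given in the sources used here. The values are whole-number read counts per gene, deposited by the authors without normalization in 2 tables (31 and 24 libraries) of 47937 genes each. Groups were taken from the labels, which number the replicates without saying whether they came from separate mice, so that p-values measure the spread between these libraries, which may be technical. Gene IDs were matched to GENCODE M21 (GRCm38) for 47224 rows, and the other rows held 0.0709% and 0.0585% of counts.

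Each table was fitted with edgeR 4.0.16 in R 4.3.3 (TMM, filterByExpr over 8 groups, robust quasi-likelihood test, 1 mean per group), with 13839 and 13897 genes tested. Adjusted p-values are Benjamini-Hochberg over all genes tested. A call needed an adjusted p below 0.05 and, between groups, a fold change over 2, and tests of interaction, of WT subsets together and of effect differences used the adjusted p alone. The Odc and Dohh effects were compared in 1 fit of both sets. Levels per kb were divided by the exon union. Correlations used log2 CPM with a prior count of 2. The scripts were tested on simulated data. Median depth was 7683308 counts in the Odc and 9800988 in the Dohh set.

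Members and gene lists were chosen with earlier results of these data known. The genes named were the 6 members, Odc1 and Dohh, up to 4 genes per list called in most comparisons (ties by mean absolute log2 fold change), and the 3 genes most correlated with each member. Alternatives were DESeq2 1.42.0, RLE size factors, other filters and thresholds, fits of the 2 groups compared, a test of the 2-fold change itself, a replicate block and each library left out. Deviations from group means of WT libraries with the same number correlated between subsets (mean over 0.1 for 4 of 4 numbers of the Odc and 3 of 3 of the Dohh set), a pairing taken from the data and not from the labels, so that blocked values are given beside tests across subsets whose call they change. Replicate 1 of the TH2 libraries labelled Odc-/- was not analysed here.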

Additional observations from a re-analysis of the deposited data

Results flagged for a closer look

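Results are given here because the effect of deficiency differed between subsets or between the Odc and Dohh sets by a test of the difference itself. Between subsets, in the Odc set, the adjusted p (edgeR, interaction of genotype and subset) was 1.86e-07 for Nr4a3, 2.56e-07 for Nr4a1, 0.000369 for Egr2, 0.00428 for Egr1 and 0.0361 for Egr3. In the Dohh set it was 0.00219 for Nr4a1, 0.00391 for Nr4a3, 0.00780 for Egr2 and 0.0172 for Nr4a2. Leaving out 1 library at a time kept the adjusted p under 0.05 for all of these except Egr3 in the Odc set, where it reached 0.0865.

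Between the tables, the Odc effect minus the Dohh effect (log2, edgeR) was -1.46 for Egr1 and -1.73 for Nr4a2 in TH1 cells, 1.53 for Egr2 and 1.48 for Nr4a1 in TH2 cells, -1.60 for Nr4a2 and -1.51 for Nr4a3 in TH17 cells, and 1.77 for Nr4a1 in Treg cells. With each single library left out, the differences of Nr4a1 ran from 1.41 to 1.52 in TH2 and from 1.61 to 1.92 in Treg cells, always with an adjusted p under 0.05. The other 5 ran from -1.92 to 0.052 (Egr1) and -2.11 to -0.83 (Nr4a2) in TH1, from 1.22 to 1.76 (Egr2) in TH2, and from -1.84 to -1.31 (Nr4a2) and -1.73 to -1.25 (Nr4a3) in TH17 cells, and each of these missed the threshold without at least 1 library. The tables share no control libraries, and the set of samples and the gene labelled as deleted cannot be told apart.

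No library stood apart from its group by Dixon's test in the 42 groups of 4 libraries tested, where 2.1 would be flagged by chance. Groups of 3 libraries, all of the Dohh set among them, were not tested, so that replicate 3 of the TH1 libraries labelled Dohh-/- was not examined in this way.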

How the results depend on the processing

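Counts of members called moved with the thresholds and the libraries used. In TH1 cells of the Dohh set, 5 members were called, against 1 at an adjusted p below 0.01 and 3 without a low-count filter. The count was 1 with only the 2 groups compared and 1 by a test of the 2-fold change itself. In TH2 cells of the Dohh set the count of 1 became 0 at an adjusted p below 0.01, without a filter and by the 2-fold test. It became 2 with only the 2 groups compared. By the 2-fold test the count was 1 in TH17 and 1 in Treg cells of the Dohh set (main count 2 each), 0 in TH17 cells (main 1) and 0 in Treg cells (main 2) of the Odc set. Counts with only replicate 1 of the libraries labelled Dohh-/- (chosen after seeing the data) are not given, as that group then holds 1 library. With an adjusted p below 0.05 alone, 4, 4, 2 and 3 members were called in TH1, TH2, TH17 and Treg cells of the Odc set. Of the differences between Odc and Dohh effects, the counts of 2 in TH1, TH2 and TH17 cells became 0, 0 and 0 at an adjusted p below 0.01 and 1, 1 and 0 without a filter. Beyond the shares given above, the share of all genes called was not computed under these alternatives or with 1 library left out. A move of the members' counts therefore cannot be told apart from a move of all genes. The causes were not tested.

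With 1 library left out at a time, the counts ran from 2 to 5 in TH1 and from 0 to 1 in TH2 and from 2 to 3 in TH17 cells of the Dohh set, from 1 to 2 in TH2 and from 1 to 2 in Treg cells of the Odc set, from 2 to 5 for WT subsets in the Dohh set, and from 4 to 6 for interactions in each set. For effect differences they ran from 1 to 3 in TH1, 1 to 3 in TH2, 0 to 3 in TH17 and 1 to 2 in Treg cells. The count of 2 in Treg cells came without replicate 3 of the TH1 libraries labelled Dohh-/-, where Egr2 was added.

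Several small log2 fold changes turned their sign. Egr1 in TH1 cells of the Odc set (main 0.00) was -0.034 with DESeq2, -0.034 with RLE size factors, -0.033 without a filter, -0.022 with a mean count of at least 50 and -0.016 with only the 2 groups compared. Egr1 in TH2 cells of the Odc set (main 0.02) was -0.0024 with DESeq2, -0.00066 with RLE size factors, -0.028 with a mean count of at least 50 and -0.025 without a filter. Nr4a1 in TH17 cells of the Dohh set (main -0.02) was 0.013 with DESeq2, 0.014 with RLE size factors, 0.023 with a mean count of at least 50, 0.019 with only the 2 groups compared and 0.44 with only replicate 1. Nr4a2 in Treg cells of the Dohh set (main -0.01) was 0.23 with only replicate 1.

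Signs also turned with 1 library left out. In the Odc set Egr1 ran from -0.13 to 0.080 in TH1 and from -0.083 to 0.12 in TH2 cells. In the Dohh set Egr1 ran from -0.077 to 1.91, Egr3 from -0.094 to 3.01 and Nr4a1 from -1.35 to 0.19 in TH1 cells, Egr3 from -0.18 to 0.89 and Nr4a1 from -0.32 to 0.22 in TH17 cells, and Nr4a2 from -0.19 to 0.073 in Treg cells. Effect differences in TH1 cells ran from -1.92 to 0.052 for Egr1, -0.29 to 1.79 for Egr2, -2.32 to 0.75 for Egr3 and -0.45 to 1.34 for Nr4a3. Those in TH17 cells ran from -0.36 to 0.17 for Egr1, -0.70 to 0.30 for Egr3 and -0.49 to 0.034 for Nr4a1, and those in Treg cells from -0.32 to 0.087 for Egr1 and -0.54 to 0.063 for Egr3. The falls of Nr4a1 in Treg cells ran from -1.33 to -1.16 (Odc) and from -3.20 to -2.95 (Dohh).

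The replicate numbers did not pair WT with deficient libraries of the same subset. Deviations of same-numbered libraries correlated above 0.1 in 7 of 15 pairs of the Odc set (median 0.0066) and 1 of 12 pairs of the Dohh set (median -0.012), and 5 of 15 and 5 of 12 correlated best with their own number. With the replicate block, Nr4a3 in TH17 cells of the Dohh set passed (adjusted p = 0.0219, edgeR), as did the Nr4a2 interaction in the Odc set (0.0467) and Egr2 between WT subsets of the Dohh set (0.0299), while Nr4a2 in Treg cells of the Dohh set was 0.011 and the Nr4a3 effect difference in TH1 cells 0.18 against -0.05. With a block within genotype, added after seeing the data, the Nr4a2 interaction and Egr2 had adjusted p = 0.0323 and 0.0184. Other than the counts, 663 of 744 values kept direction and side of the threshold under the alternatives other than leaving out 1 library at a time. Depth limits Egr3 most, with 6 counts in its lowest library.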
